A study of Drosophila melanogaster with 6 samples.

Results

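The 10 genes described here are the core of Hedgehog signalling and the posterior selector genes of the *Drosophila melanogaster* wing imaginal disc: hh, en, inv, ptc, smo, ci, fu, ihog, boi and disp. They were taken by name from 17525 genes listed in the tables. Each library was made from wing discs, the sheets of larval cells that grow into wing and notum. The 3 control libraries are MS1096-Gal4, and the 3 knockdown libraries add to that driver an RNAi transgene against dNKAP (CG6066), so the driver is common to both groups. MS1096-Gal4, inserted at Beadex, is active mainly in the pouch, the future wing blade, and other disc cells carry little or no hairpin. Larval age, sex and the crosses behind the replicates are not stated, so a p-value reflects the spread of these libraries, which may be technical. In a whole disc, fewer cells of a type and less RNA per cell cannot be told apart.

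Hedgehog (Hh) is a secreted, lipid-modified signal that organises the wing along its anterior-posterior axis. Cells of the posterior compartment express the homeodomain selectors Engrailed (En) and Invected (Inv), make Hh and do not express its effector Cubitus interruptus (Ci). Across the compartment border Hh binds Patched (Ptc) together with Ihog or Boi, which frees Smoothened (Smo) to signal through the kinase Fused (Fu), so that Ci switches genes such as dpp and ptc on rather than off.

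The values are FPKM, fragment numbers scaled for the length of a transcript and the size of its library, summed over the transcript rows of a gene. Summed read depth was 4.14 to 6.44 gigabases a library, and 6022 to 6183 genes exceeded 1 FPKM. The targeted CG6066 was at 22.8 to 26.6 FPKM in controls and 11.4 to 13.96 FPKM in dNKAP RNAi (log2 change -0.90, limma adjusted p = 0.0146). The call ended without control replicate 1, 2 or 3 or dNKAP RNAi replicate 2, where the limma adjusted p was at most 0.0640. Of 6506 tested genes 995 were listed at 0 in at least 1 library, among them the ribosomal protein gene RpS2, so a 0 does not show that a transcript was absent. Among tissue markers, the pouch genes vg and rn, the hinge genes tsh and hth and the notum gene eyg were above 0 in every library. Of 4 fat body markers Lsp1beta and Lsp2 were at 0 in all libraries. The list summed to 0.991 to 41.8 FPKM in controls and 152 to 570 FPKM in dNKAP RNAi and came from Fbp1 (0.542 to 25.1 and 62.5 to 561 FPKM) and Lsp1alpha (0.449 to 16.7 and 8.72 to 97.9 FPKM). Its part in the results below was not tested. Blood cell markers summed to 3.43 to 18.6 and 9.97 to 18.5 FPKM. The muscle precursor marker twi, the nerve cell marker elav and the glial marker repo were at 0 in all libraries. Summed markers of trachea were at 536 to 788 and 457 to 534 FPKM, of muscle precursors at 26.7 to 42.6 and 21.1 to 33.4, of neurons and glia at 0.452 to 3.63 and 0.274 to 0.464, and of the peripodial membrane at 6.86 to 9.82 and 5.96 to 8.38. The trachea sum lay mostly in verm (means 523 and 455 FPKM). Its highest control value included serp at 188 FPKM in control replicate 2, a gene at 0 in all dNKAP RNAi libraries. The trachea markers btl and trh had log2 changes of -0.08 and -0.01. Pouch markers summed to 257 to 259 and 294 to 320 FPKM. The narrow control range hid opposite differences, with vg at 110, 87.1 and 69.3 FPKM and nub at 46.5, 59.3 and 83.5 FPKM. Groups overlapped for nub, vg, rn and Dll but not for pdm2, which was at 0 in control replicates 2 and 3. Notum and hinge markers summed to 226 to 243 and 141 to 169 FPKM. Most of the lower notum and hinge sum lay in hth (means 106 and 46.7 FPKM). The notum gene pnr (means 21.9 and 14.7 FPKM) had a log2 change of -0.80 (limma adjusted p = 0.515) and tsh one of -0.14. pnr was at 4.68 FPKM in dNKAP RNAi replicate 1 and at 17.6 and 21.7 FPKM in replicates 2 and 3, and its groups overlapped. The change was -0.07 for eyg and 1.09 for tup, which was at 0 in control replicate 1. No gene of these marker lists passed the test, where 3.72% of all tested genes did.

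No gene of the Hedgehog core passed the threshold of adjusted p under 0.05 in either direction. Of the 10 genes, 8 were tested and all 8 passed the filter on low values while being above 0 in every library. The other members, en and inv, were listed at 0 throughout. Over all tested genes 3.72% passed, 3.21% higher and 0.507% lower in dNKAP RNAi, that is 209 and 33 genes, or 187 and 62 after quantile normalization. The estimates of the 8 genes ranged from -0.35 for ptc to 0.36 for disp on the log2(FPKM + 0.5) scale, with a median of 0.07 against 0.03 over all tested genes, and 4 were above and 4 below 0. The control and dNKAP RNAi libraries did not overlap for 4 of the 8 genes, against 28.5% of all tested genes: hh and disp were higher in dNKAP RNAi (17.3% of all genes) and ihog and ci lower (11.2%). For 3 of the 8 genes (hh, disp and ihog) the unadjusted p was under 0.05, against 19.0% of all tested genes.

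**Figure D1:**
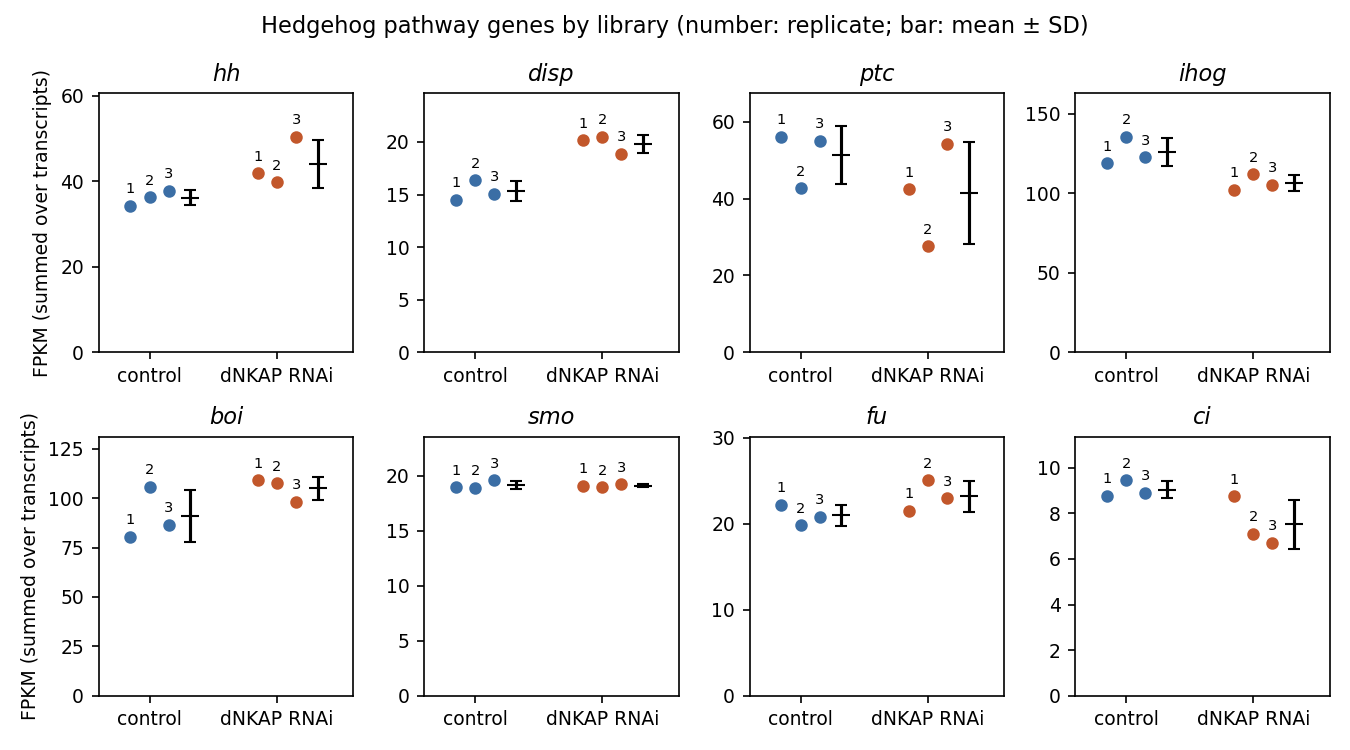
FPKM of the 8 measured genes in each library, 3 control and 3 dNKAP RNAi, each panel on its own axis from 0; numbers are replicates and bars give the mean ± SD. Groups separate for hh, disp, ihog and ci, smo spans 18.9 to 19.6 FPKM, and ptc is spread from 27.5 to 56.1 FPKM.

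The ligand gene hh (FBgn0004644; chromosome 3R, 23128169 to 23141906, minus strand, dm6) measured 34.3, 36.2 and 37.8 FPKM in controls, against 41.9, 39.7 and 50.4 in dNKAP RNAi. Every dNKAP RNAi library lay above every control, with replicate 3 the highest. Group means were 36.1 ± 1.74 in controls and 44.0 ± 5.64 FPKM in dNKAP RNAi (SD, n = 3 each), and the log2 change was 0.28 with an SE of 0.11, a 95% interval of 0.01 to 0.54 and a limma adjusted p of 0.249. Without dNKAP RNAi replicate 3 the change was 0.18 (limma adjusted p = 0.332). hh has 1 annotated transcript, and 1 exactly matching row gave its value in every library, with deposited confidence bounds of 4.16% to 5.93% on either side. The 3 genes whose log2 profile over the 6 libraries lay closest to that of hh, among 5503 genes above 0 throughout, were skd, a subunit of the Mediator kinase module, Pvr, a receptor tyrosine kinase, and the syntaxin gene Syx6. Their root mean square differences from hh were 0.0312, 0.0359 and 0.0502 on the log2 scale. skd, for instance, measured 24.3, 25.8 and 26.7 FPKM in controls, against 29.9, 27.0 and 34.2 in dNKAP RNAi.

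disp (FBgn0029088; chromosome 3R, 5849697 to 5856311, minus strand) encodes Dispatched, the transporter-like protein that releases lipid-modified Hh from producing cells. It measured 14.5, 16.4 and 15.1 FPKM in controls, against 20.2, 20.5 and 18.9 in dNKAP RNAi, again without overlap. Group means were 15.3 ± 0.945 in controls and 19.8 ± 0.869 FPKM in dNKAP RNAi (SD, n = 3 each). Its log2 change of 0.36 (SE 0.08, 95% interval 0.17 to 0.56) was the largest of the 8, and with a limma adjusted p of 0.0773 it had the lowest adjusted p of the 8 without passing. The rows behind the sum differed between libraries. The reference transcript FBtr0078665 alone measured 14.5, 16.4 and 15.1 FPKM in controls, against 12.7, 13.05 and 18.9 in dNKAP RNAi. In dNKAP RNAi replicates 1 and 2 a further row with a new junction, assembled at 3945 and 4026 bases against 4884 for the reference, added 7.48 and 7.47 FPKM. Exact matches alone put disp at a log2 change of -0.06 (limma adjusted p = 0.890). Length-weighted values were 70.9, 79.9 and 73.6 in controls, against 91.4, 93.8 and 92.1 in dNKAP RNAi, again without overlap. On that scale, fragments scaled to library size alone, the change was 0.31 (limma adjusted p = 0.0573).

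Of the posterior selectors no level could be given. en (FBgn0000577; chromosome 2R, 11524006 to 11528210, minus strand) and its paralog inv (FBgn0001269; 2R, 11474465 to 11509695, plus strand) are neighbours, with 14310 bases between them. Both were listed at 0 FPKM in all 6 libraries. The upper bounds of those zeros were at most 0.0413 FPKM for en and 0.0334 FPKM for inv. For en 1 of 2 annotated transcripts has a row in the tables used here, and for inv 1 of 3. The transcripts FBtr0088096 of en and FBtr0088069 and FBtr0345673 of inv were not analysed here, and the zeros cover only the listed transcripts. The same layout held for genes whose presence is not in doubt. Act5C, a cytoplasmic actin, was at 0 in all libraries with 2 of 5 annotated transcripts listed. RpS2, a ribosomal protein gene with 2 of 3 listed, was at 0 in 4 libraries and at 494 and 783 FPKM in control replicate 3 and dNKAP RNAi replicate 1. There its row stood at 12% and 16% of the most abundant isoform of the locus, which was not analysed here. In 5.68% to 6.24% of loci above 0 no row stood at 100%. For each of the other 8 Hedgehog genes, such a row was present in every library.

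The receptor gene ptc (FBgn0003892; chromosome 2R, 8649649 to 8665223, plus strand) is itself switched on by Hh signalling and its protein holds Smo inactive. It measured 56.1, 42.6 and 55.1 FPKM in controls, against 42.5, 27.5 and 54.2 in dNKAP RNAi, and the groups overlapped. Group means were 51.3 ± 7.49 in controls and 41.4 ± 13.4 FPKM in dNKAP RNAi (SD, n = 3 each), with a log2 change of -0.35 (SE 0.27, 95% interval -1.03 to 0.34, limma adjusted p = 0.548). The rows entering the sum differed between libraries. The libraries at 54.2 to 56.1 FPKM (controls 1 and 3, dNKAP RNAi 3) held the reference transcript FBtr0089427 at 23.6 to 27.1 FPKM and a new-junction row of 3838 to 3911 bases at 27.9 to 30.7 FPKM. The libraries near 42 FPKM (control 2, dNKAP RNAi 1) held the reference transcript of 5521 bases alone. In dNKAP RNAi replicate 2 only a new-junction row of 5019 bases had a value. Weighting each row by its length, which undoes the scaling to transcript length, gave 258, 235 and 259 in controls and 234, 138 and 248 in dNKAP RNAi, where dNKAP RNAi replicate 2 was again the lowest. The highest library exceeded the lowest 1.87-fold on that scale and 2.04-fold in summed FPKM, and the log2 change was -0.32 (limma adjusted p = 0.501). Without that library the log2 change of ptc in summed FPKM was -0.08 (limma adjusted p = 0.834). The genes closest to ptc in profile were the small heat shock gene Hsp23, the lipase gene bmm and the planar polarity gene mwh, with root mean square differences of 0.110, 0.122 and 0.146 on the log2 scale. All 3 were lowest in dNKAP RNAi replicate 2, as ptc was, which follows from choosing them by their closeness to ptc.

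The co-receptor genes ihog and boi were the most abundant of the 8 genes. Their products are immunoglobulin and fibronectin repeat proteins that bind Hh alongside Ptc and are partly interchangeable. ihog (FBgn0031872; chromosome 2L, 6945464 to 6948808, minus strand) measured 119, 136 and 123 FPKM in controls, against 102, 112 and 105 in dNKAP RNAi. All dNKAP RNAi libraries lay below all controls. Group means were 126 ± 8.83 in controls and 106 ± 4.90 FPKM in dNKAP RNAi (SD, n = 3 each), the log2 change -0.24 (SE 0.07, 95% interval -0.42 to -0.06) and the limma adjusted p 0.166. Its value came from 1 exactly matching row in each library. boi (FBgn0040388; chromosome X, 2444167 to 2470043, minus strand) measured 80.4, 106 and 86.5 FPKM in controls, against 109, 108 and 98.2 in dNKAP RNAi. Control replicate 2 lay within the dNKAP RNAi range. Group means were 90.9 ± 13.3 in controls and 105 ± 5.90 FPKM in dNKAP RNAi (SD, n = 3 each), with a log2 change of 0.21 (SE 0.12, 95% interval -0.08 to 0.51, limma adjusted p = 0.382). All 5 annotated boi transcripts had rows, yet new-junction rows carried 33.9 to 94.4 FPKM of the sum in every library, and 3 annotated transcripts stayed at 0. FBtr0070457 was at 15.1, 15.7 and 20.8 FPKM in control 3, dNKAP RNAi 2 and dNKAP RNAi 3, and at 0 in the others. Within controls ihog and boi did not overlap, whereas within dNKAP RNAi they did.

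**Figure D2:**
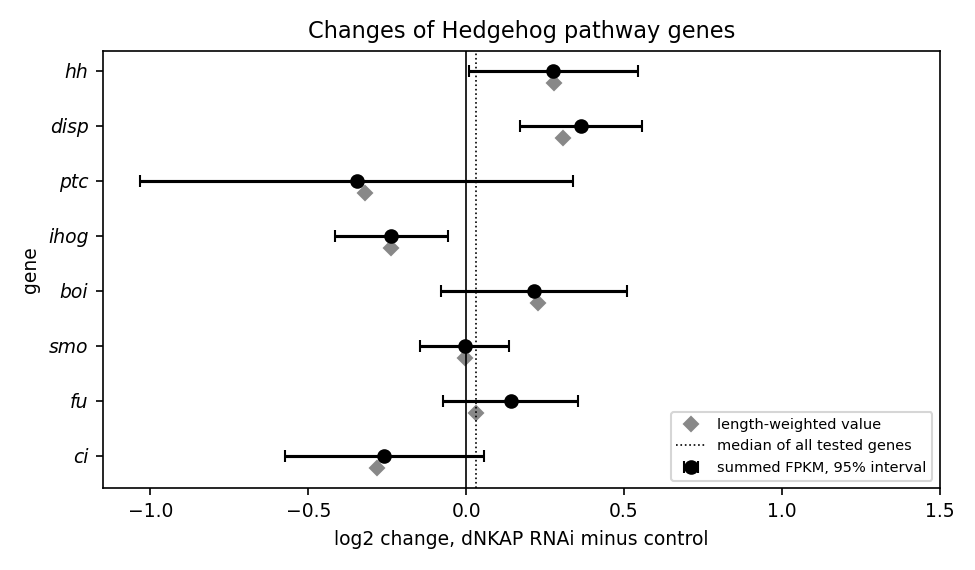
Log2 change of each measured gene, dNKAP RNAi minus control; circles and bars give the estimate and 95% interval from summed FPKM, diamonds the estimate from length-weighted values. Intervals of hh, disp and ihog lie off 0 before adjustment, ptc has the widest interval, and fu moves from 0.14 to 0.03 with length weighting.

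smo (FBgn0003444; chromosome 2L, 277582 to 282167, plus strand) encodes the signal-transducing membrane protein of the pathway and was the steadiest of the 8. It measured 18.9, 18.9 and 19.6 FPKM in controls, against 19.1, 19.0 and 19.2 in dNKAP RNAi. Group means were 19.2 ± 0.387 in controls and 19.1 ± 0.138 FPKM in dNKAP RNAi (SD, n = 3 each), and the interval of the log2 change ran from -0.15 to 0.14 (limma adjusted p = 0.983). Its highest and lowest libraries differed 1.04-fold, less than the deposited bounds of a single library, which spanned 6.02% to 6.86% on either side.

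fu (FBgn0001079; chromosome X, 18657755 to 18661204, plus strand) encodes the kinase that Smo activates. It measured 22.2, 19.8 and 20.8 FPKM in controls, against 21.5, 25.1 and 23.0 in dNKAP RNAi, with overlap. The log2 change was 0.14 (SE 0.09, 95% interval -0.07 to 0.36, limma adjusted p = 0.434). The rows behind this sum differed between groups. The reference transcript FBtr0074602 alone measured 22.2, 19.8 and 20.8 FPKM in controls, against 15.9, 17.1 and 14.95 in dNKAP RNAi. A new-junction row of 2892, 2332 and 2265 bases added 5.57, 8.004 and 8.02 FPKM in the 3 dNKAP RNAi libraries and was in no control. Such a pattern, a new-junction row in every dNKAP RNAi library and no control, was found in 31 tested genes (0.476%), and the reverse in 25 (0.384%). With exact matches alone the log2 change of fu was -0.38 (limma adjusted p = 0.138), and with length-weighted values 0.03 (0.830).

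ci (FBgn0004859; chromosome 4, 47710 to 57041, minus strand) encodes the zinc finger transcription factor of the pathway and had the lowest level of the 8. It measured 8.76, 9.46 and 8.90 FPKM in controls, against 8.75, 7.10 and 6.70 in dNKAP RNAi. The groups did not overlap, but dNKAP RNAi replicate 1 and control replicate 1 differed by less than the SD within either group. Group means were 9.04 ± 0.368 in controls and 7.52 ± 1.08 FPKM in dNKAP RNAi (SD, n = 3 each), with a log2 change of -0.26 (SE 0.12, 95% interval -0.57 to 0.06, limma adjusted p = 0.330). The larger difference was between its transcripts. FBtr0089178 measured 8.76, 9.46 and 6.62 FPKM in controls, against 1.56, 5.19 and 2.96 in dNKAP RNAi. FBtr0308074 measured 0, 0 and 2.28 FPKM in controls, against 7.19, 1.92 and 3.74 in dNKAP RNAi. Its share of the listed ci FPKM was 0%, 0% and 25.6% in controls and 82.2%, 27.0% and 55.8% in dNKAP RNAi. The zeros in control replicates 1 and 2 do not show that FBtr0308074 was absent there. They entered the usage test below as 0 with 0.5 FPKM added. The third annotated transcript, FBtr0306168, differs in its first exon and had no value above 0. FBtr0089178 and FBtr0308074 are alike except in exon 5, which spans 50516 to 50680 in FBtr0089178 and 50516 to 50613 in FBtr0308074. On the minus strand the shorter exon starts 67 bases later, a length that is not a multiple of 3. In limma's diffSplice test of usage, the relative log2 change of FBtr0308074 was 3.61 (unadjusted p = 0.00618, adjusted p = 0.206 over 4297 transcripts). It did not pass, where 2.09% of all transcripts tested did and 10.3% had an unadjusted p under 0.05. Leaving out control replicate 3 brought the adjusted p to 0.0233, and leaving out any other library kept it between 0.120 and 0.482.

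**Figure D3:**
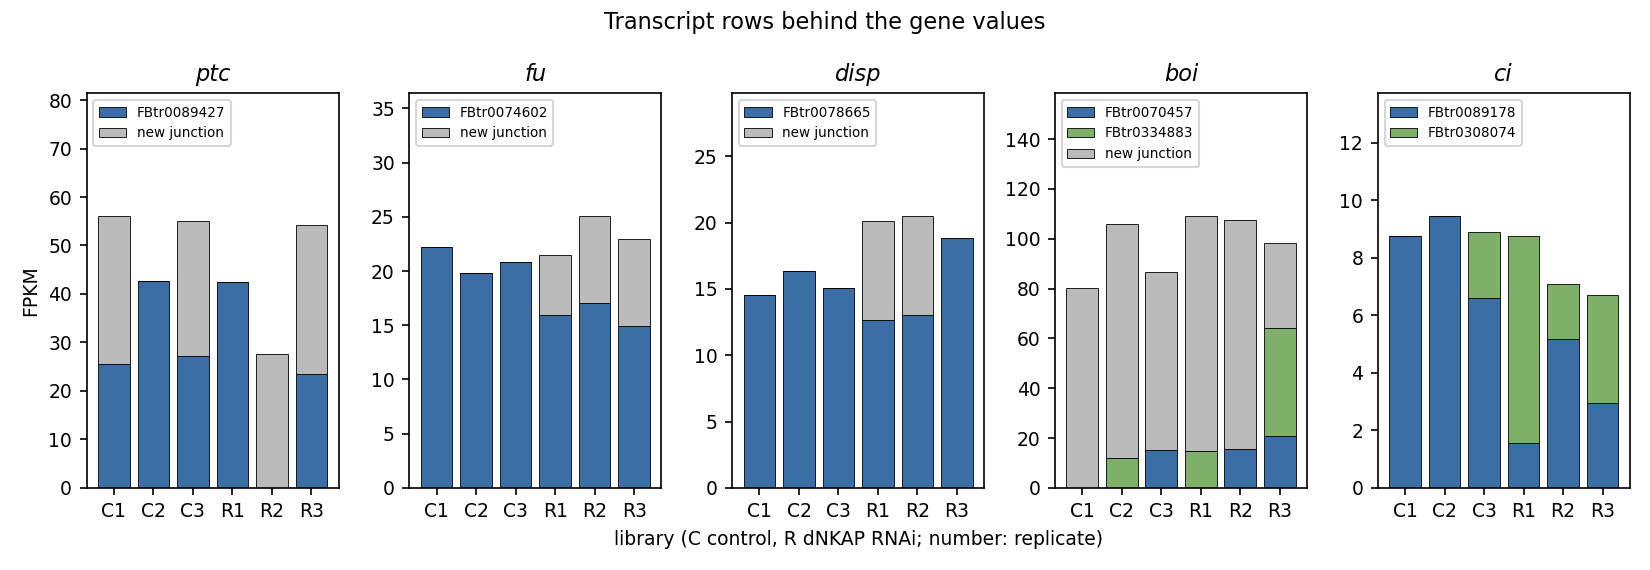
FPKM of the transcript rows summed for ptc, fu, disp, boi and ci in each library; coloured parts are exact matches to a reference transcript and grey parts are rows with a new junction. New-junction rows of fu appear in all 3 dNKAP RNAi libraries and no control, and those of disp in dNKAP RNAi replicates 1 and 2. FBtr0308074 of ci takes 0% to 25.6% in controls and 27.0% to 82.2% in dNKAP RNAi, and its usage change did not pass the test.

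In order of level, controls ran ihog, boi, ptc, hh, fu, smo, disp and ci, and neighbours in this order did not overlap between genes. In dNKAP RNAi the order was ihog, boi, hh, ptc, fu, disp, smo and ci. There ihog and boi, hh and ptc, and disp and smo overlapped. The places of disp and fu above smo in dNKAP RNAi rested on new-junction rows. Exact matches alone put disp (12.7, 13.05 and 18.9 FPKM) and fu (15.9, 17.1 and 14.95 FPKM) below smo (19.1, 19.0 and 19.2 FPKM) there. The ratio of ptc to ci within a library, a target gene against the factor that controls it, was 6.40, 4.51 and 6.19 in controls and 4.85, 3.88 and 8.10 in dNKAP RNAi. The mean log2 ratios were 2.49 ± 0.279 and 2.42 ± 0.544 (SD, n = 3 each), and an exact two-sided permutation test gave p = 0.9, where the smallest p this design allows is 0.1. Exons of genes on the other strand overlap those of smo, ci, fu, boi and disp, so their values are uncertain, strand use being unstated. Of those 6 partner genes 5 were listed at 0 in all libraries. The sixth, CG17078 at smo, was at 14.5 to 15.6 FPKM in controls and 12.7 to 14.4 FPKM in dNKAP RNAi.

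Around this core, 24 further genes of Hedgehog signal transduction were listed and 21 tested, with a median log2 change of -0.06 against 0.03 over all tested genes. Of the 21, 1 gene passed the test as higher and 0 as lower, where 3.21% and 0.507% of all tested genes did, so the list's count is near the background. Herc4, a ubiquitin ligase reported to limit Smo, rose from 29.3, 29.2 and 28.7 to 43.5, 39.7 and 43.6 FPKM. No dNKAP RNAi library came near a control. Group means were 29.0 ± 0.337 in controls and 42.3 ± 2.25 FPKM in dNKAP RNAi (SD, n = 3 each), and its log2 change was 0.53 with an SE of 0.06 and a limma adjusted p of 0.0123. With exact matches alone its change was 0.18 (limma adjusted p = 0.622), and without dNKAP RNAi replicate 1 or 3 the adjusted p was 0.0534 and 0.0503. Galphai, a G protein subunit that Smo can engage, measured 96.0 ± 1.31 and 82.1 ± 2.20 FPKM (limma adjusted p = 0.0708). Su(fu), the inhibitor that binds Ci, was at 47.3 to 61.5 and 47.7 to 52.3 FPKM, and Pka-C1, the kinase that marks Ci for processing, at 14.997 to 16.2 and 14.4 to 15.9 FPKM. Of the 21 genes 6 were at 0 in some library, among them cos, the kinesin-like scaffold of the pathway, at 0 in all but control replicate 2, where it was at 25.1 FPKM.

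None of 8 tested genes for maturation, release and spread of Hh passed, where 3.72% of all tested genes did. shf, which helps Hh move through the matrix, measured 140, 154 and 144 FPKM in controls, against 101, 129 and 104 in dNKAP RNAi. Its log2 change was -0.40 (limma adjusted p = 0.143), without dNKAP RNAi replicate 2 it was -0.51 (0.0406), and with exact matches alone it turned to 0.019 (0.989). The glypican genes dally and dlp, whose products carry Hh between cells, were at 88.5 to 106 and 96.9 to 143 FPKM and at 53.4 to 79.0 and 71.8 to 131 FPKM, with overlap. The acyltransferase gene rasp, which attaches palmitate to Hh, was at 21.4 to 25.0 and 20.9 to 27.6 FPKM. The list's median log2 change was 0.34, and 0.18 over the 6 genes above 0 in every library.

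None of 9 tested Hh target genes of the wing disc passed, where 3.72% of all tested genes did, and their median log2 change was 0.11. The list was not split into targets that Hh raises and targets that it lowers, so the median does not measure pathway output. dpp, the growth factor gene switched on along the compartment border, measured 28.4, 24.9 and 27.5 FPKM in controls, against 34.3, 27.6 and 28.5 in dNKAP RNAi. Its groups overlapped, with dNKAP RNAi replicate 1 the highest, and the limma adjusted p was 0.506. kn, the border-zone transcription factor, was at 14.9 to 17.3 and 13.5 to 18.2 FPKM. caup, a gene of the iroquois complex, was at 73.3 to 89.2 and 43.9 to 75.5 FPKM (limma adjusted p = 0.295), and tkv, the Dpp receptor gene, at 160 to 329 and 264 to 326 FPKM. bs, the intervein factor, was the 1 target of 9 whose groups did not overlap, against 28.5% of all tested genes (11.2% lower). It was at 10.4 to 13.3 and 6.42 to 8.67 FPKM (limma adjusted p = 0.117). For 3 of the 9 targets, among them bs and dpp, no row stood at 100% of the locus in at least 1 library.

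None of 7 tested genes of the dorsal-ventral boundary passed (median 0.04), where 3.72% of all tested genes did. ap, the dorsal selector, measured 71.6 to 83.2 and 73.2 to 90.3 FPKM, and in some library no row of ap stood at 100% of its locus. fng, a target of ap that modifies Notch, measured 142 to 159 and 133 to 147 FPKM. None of 14 tested Polycomb and trithorax group genes, which keep en, inv and hh on or off, passed either (median 0.03). Of these, brm measured 122 to 139 and 119 to 148 FPKM and Caf1-55 206 to 238 and 194 to 205 FPKM. For 3 of the 14 no row stood at 100% of the locus in at least 1 library. Beside these lists, the pouch genes vg and rn were at 69.3 to 110 and 57.2 to 134 FPKM and at 66.1 to 79.9 and 75.4 to 84.6 FPKM. The hinge gene hth was at 99.9 to 111 FPKM in controls and 29.2 to 68.0 FPKM in dNKAP RNAi (log2 change -1.26, limma adjusted p = 0.108). Its change was -1.57 without dNKAP RNAi replicate 1 (0.0457), -0.40 with exact matches alone (0.699) and -0.75 with length-weighted values (0.237), and in some library no row of hth stood at 100% of its locus. tsh was at 80.1 to 83.6 and 68.95 to 79.7 FPKM. Their part in the results was not tested.

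**Figure D4:**
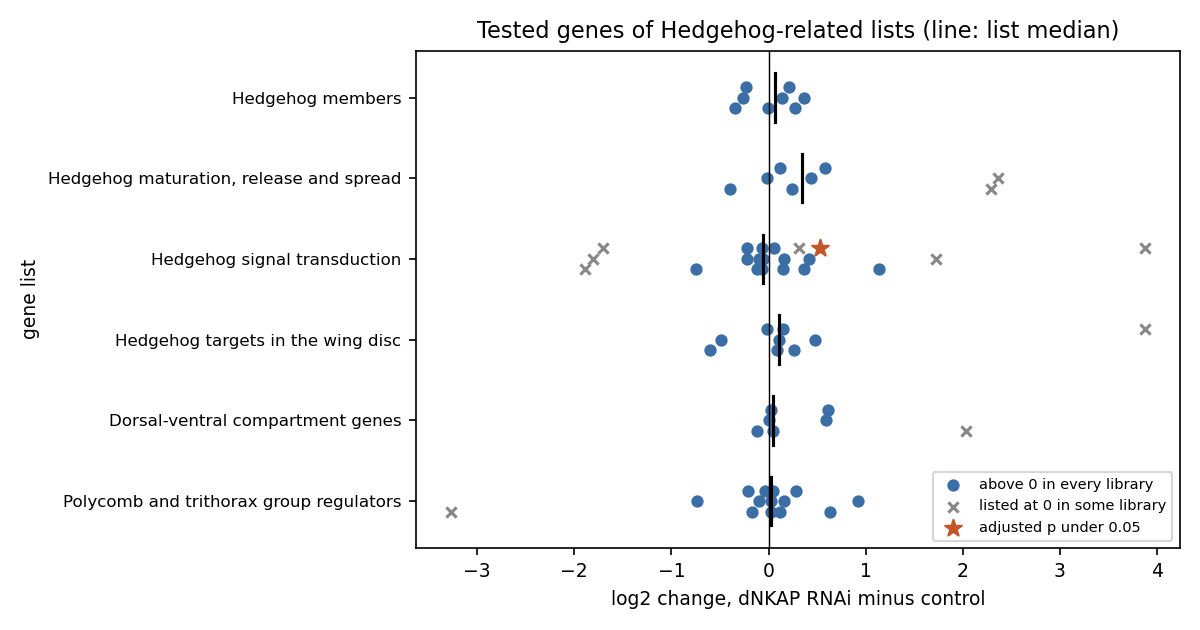
Log2 change of every tested gene in the Hedgehog core and 5 related lists, dNKAP RNAi minus control; lines are list medians, crosses mark genes listed at 0 in some library and the star a gene with adjusted p under 0.05. Medians run from -0.06 to 0.34, Herc4 is the 1 star, and the widest changes are crosses.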

How the data were processed

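Disc RNA was isolated with Trizol and read on a NextSeq instrument, per the labels' protocols. The authors deposited 1 transcript table per library in the layout of Cuffcompare, per the file headers. The authors' FPKM and confidence bounds were taken unchanged. Their deposited coverage signal, the mean read depth of a transcript, served for depth alone. A further deposited column gives each transcript as a percent of the most abundant isoform of its locus. FastQC, HTSeq, DESeq and build dm6 are named in the submitters' processing notes, per the labels; versions, aligner and strand use were not stated. Of 30260 reference transcripts, 98.99% had the length of the Ensembl annotation of the same assembly, which gave names and coordinates.

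Gene values are sums over class codes for exact match, contained, shared junction (a new-junction row) and other exonic overlap. The 6506 genes whose mean over the 6 libraries reached 1 FPKM entered limma 3.58.1 in R 4.3.3, fitted with a trend to log2(FPKM + 0.5), with Benjamini-Hochberg adjustment over all of them; this scale understates changes of low genes. Filters were kept when a library was left out. diffSplice tested usage of 4297 transcripts under the same minimum, new rows being summed under the closest reference transcript. Tests are two-sided and were tested on simulated data. Tables and figures were made with pandas 2.3.3, numpy 2.4.6 and matplotlib 3.10.9.

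The genes, the related lists and the tests were chosen with earlier results of these data known. Text names CG6066, the 10 genes, list genes past the threshold (up to 4) or else the 2 most abundant, and the 3 closest profiles of hh and ptc. The other list genes with values, RpS2 and Act5C were chosen after their values were seen, for their role or as examples. 1 listed name had no match. The planned profile for en and ratios of inv and hh to en could not be had.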

Additional observations from a re-analysis of the deposited data

Results flagged for a closer look

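Rows left out of the gene values held signal beside fu. A row of the class used for fragments lying just downstream of a reference transcript, of 1018 and 1071 bases, was assembled next to fu at 0.850 FPKM in dNKAP RNAi replicate 2 and 1.77 FPKM in replicate 3. No control library had such a row. At least 2 dNKAP RNAi libraries and no control had a row of this class in 4 of 6506 tested genes, and the reverse held for 4. No group here has the 4 libraries needed to ask whether 1 of them stands apart.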

How the results depend on the processing

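The count of Hedgehog core genes past the threshold was 0 in limma under every alternative run, with 3 at an unadjusted p under 0.05 in the main comparison. hh and boi kept a positive and ihog, ci and ptc a negative change throughout. The change of boi ranged from 0.13 to 2.46 and that of ptc from -1.97 to -0.08, with the far ends from exact matches alone. With exact matches alone the sign reversed for fu (-0.38), disp (-0.063), shf (0.019), tkv (-0.95), caup (0.19), ap (-0.22), vg (-0.45) and Pvr (-0.39); vg also reversed with length-weighted values (-0.14) (this alternative, and that of loci with a row at 100%, were chosen after seeing the data). Leaving out 1 library gave ranges across 0 for smo (-0.013 to 0.012), ap (-0.034 to 0.12), brm (-0.038 to 0.12), vg (-0.10 to 0.51), the muscle precursor marker zfh1 (-0.0046 to 0.70), the blood cell marker Pxn (-1.12 to 0.13), bmm (-0.40 to 0.013) and the log2 difference of the ptc to ci ratio (-0.38 to 0.15). The cause was not tested.

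Leaving out 1 library left 120 to 148 genes higher and 29 to 37 lower over all genes, and 139 to 163 transcripts past the usage threshold against 90. Against 33 genes lower, 60 were lower without a filter, 59 among genes above 0 in every library, 62 after quantile normalization and 58 after median-ratio scaling. With a transcript minimum of 5 FPKM, 50 transcripts passed. The calls of CG6066 and Herc4 ended without some libraries (CG6066 adjusted p up to 0.0640). Single libraries also moved boi (0.13 without control replicate 1, 0.33 without control replicate 2) and fu (0.08 without dNKAP RNAi replicate 2) by over 1.5 times. The same held for ptc (-0.08 without dNKAP RNAi replicate 2, -0.57 without dNKAP RNAi replicate 3) and hh (0.18 without dNKAP RNAi replicate 3).

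Same-numbered libraries did not deviate together (correlations -0.0375, 0.0572 and -0.00498), and not every library correlated best with its own number. Whether the numbers pair libraries is not stated. These correlations cannot settle it, since paired libraries need not share a deviation. With the replicate block 72 genes were higher and 5 lower, the limma adjusted p of Herc4 was 0.115 and that of CG6066 0.134, both past the threshold without the block, and the log2 difference of the ptc to ci ratio was -0.08. The ptc to ci ratio had no value with exact matches alone.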
